A study of Mus musculus with 6 samples.

Results

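Neurexins are presynaptic adhesion molecules, and neuroligins and LRRTMs are postsynaptic proteins that bind them across the synaptic cleft. The 9 genes described here are Nrxn2 and Nrxn3 of the neurexins, Nlgn1, Nlgn2 and Nlgn3 of the neuroligins, Lrrtm1 and Lrrtm2 of the leucine-rich repeat transmembrane ligands, and Cbln1 and Cbln2 of the secreted cerebellins. They were selected by symbol, through their Ensembl identifiers, and are 9 of the 35275 genes in the deposited tables. All 9 passed the filter on low counts, which left 16137 genes for testing.

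Poly(A) RNA of the whole spinal cord was sequenced from 3 Sox2 cKO and 3 control (Ctrl) mice on a C57BL/6 background. By the paper, each group held females and males in the same numbers as the other group. It does not say which library is of which sex, and the fits had no term for sex. The Sox2 cKO mice carried mGfap-Cre and Sox2fl/fl, so that the floxed gene is lost from astrocytes, and from any other cell in which the mouse Gfap promoter that drives Cre has been active. The labels give the Ctrl genotype as mGfap-Cre:Sox2+/+, whereas the paper names Sox2fl/fl littermates and the design text allows either, so whether the Ctrl mice carried Cre is not certain. The age is 90 days in the labels and 80 days in the protocol and the paper. Libraries are called by the numbers of the deposited columns, 2, 4 and 6 for Ctrl and 1, 3 and 5 for Sox2 cKO, which is the numbering of the mice of each group in a blot of the study. The group means that the study lists for 1999 genes matched this assignment for 1999 genes, and matched the exchanged assignment for 0.

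Libraries held between 21507911 and 28392184 counts, with overlap between the groups, and all pairs of libraries differed by more than sampling noise. Normalized levels are given as CPM, counts relative to the TMM-scaled library total. Ctrl libraries 2, 4 and 6 had 19.9, 14.8 and 29.5 CPM of Sox2, the deleted gene, against 3.16, 2.69 and 2.98 CPM for Sox2 cKO libraries 1, 3 and 5. This is a log2 fold change of -2.86 (SE 0.24, adjusted p = 0.00096). The summed CPM of 15 neuronal markers lay between 10800.0 and 11300.0 in Ctrl and between 10800.0 and 11200.0 in Sox2 cKO, that of 10 astrocyte markers between 8110.0 and 9800.0 in Ctrl and between 6220.0 and 6510.0 in Sox2 cKO, and that of 5 oligodendrocyte precursor markers between 148 and 181 in Ctrl and between 105 and 128 in Sox2 cKO. Of these genes 5 astrocyte and 4 precursor markers were called lower, beside 12.4% of all tested genes. In the other direction 1 neuronal marker, Stmn2, and 1 astrocyte marker were called higher, beside 12.2%. The precursor markers are long, with a median of 8227 bases. With the gene length correction described below, 2 astrocyte markers and 1 precursor marker were called lower, beside 6.99% of all tested genes. With it 1 neuronal and 0 astrocyte markers were called higher, beside 6.08%. The part of these cell types in the results was not tested. Oligodendrocyte, microglial and Schwann cell markers were detected in every library, with summed levels that overlapped between the groups. The 9 Hox genes of the spinal cord summed to between 483 and 546 CPM, with Hoxd10 at 0 in every library, and the 5 forebrain markers summed to at most 6.73 CPM.

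Neurexins are made from long alpha and shorter beta promoters and are spliced extensively, and the splice form decides which ligands they bind. Neuroligin 1 is known mainly from excitatory synapses, neuroligin 2 from inhibitory synapses and neuroligin 3 from both. LRRTM proteins bind neurexins at excitatory synapses, and cerebellins bridge neurexins to the delta glutamate receptors. Neurons are the best known source of these proteins, but neurexins and neuroligins are also made by astrocytes and other glia. In RNA of a whole tissue, a fall in the number of cells of a type and less RNA per cell cannot be told apart. The counts are per gene, so alpha and beta neurexin transcripts and the splice forms are not resolved.

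The neurexin genes Nrxn2 and Nrxn3 hold 3 sites that the study lists as bound by SOX2 in the adult cerebral cortex, a different tissue from the one sequenced here. They are the sites within the 9 genes in the study's list of motif matches, which covers its most enriched bound sites. The study's longer list of bound sites was not searched, so the 9 genes may hold further sites. The letters are as that list gives them, for the minus strand of mm10, with the 11 bases of the site in capitals.
Nrxn2, chr19:6452165-6452265: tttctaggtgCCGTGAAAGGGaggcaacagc
Nrxn3, chr12:90274814-90274914: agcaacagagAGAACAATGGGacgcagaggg
Nrxn3, chr12:89748318-89748418: cacagattctAGAAAAAAGGAca
The coordinates are those of the listed windows around the sites, and none of the 3 windows touches an annotated exon, so that each is intronic within its neurexin gene. The letters CAAAG, searched on both strands, are in none of the 3 sites of 11 bases. The paper reports this sequence or its variants in nearly all of its most enriched sites, and variants were not searched here. In the 250 bases before the RefSeq transcription starts on GRCm38.p6, CAAAG on either strand was in 48.6% of 32851 windows of all genes. These windows are much longer than the sites, so this share cannot be set against the sites. Windows were given for Nrxn3, Nlgn1, Nlgn2 and Lrrtm1, and 4 of their 7 windows held it. SOX2 occupancy in the spinal cord was not measured.

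Among the 9 genes, Nrxn2, Nrxn3 and Nlgn1 fell in Sox2 cKO spinal cord and 0 rose. Nrxn2 fell to 0.63 of its Ctrl level, and Nrxn3 and Nlgn1 each to 0.79. Nlgn2 and Lrrtm2 had log2 fold changes of -0.27 and -0.34 that missed the threshold, and Nlgn3, Lrrtm1, Cbln1 and Cbln2 were between -0.02 and 0.12. The background was 12.4% of the 16137 tested genes called lower and 12.2% called higher, 24.6% in all. The median log2 fold change was -0.27 over the 9 genes and 0.02 over all tested genes. At an unadjusted p under 0.05 the count of the 9 genes called higher was also 0, beside 3181 of the 16137 tested genes. DESeq2 called 5 of the 9 genes lower and 0 higher, beside 15.0% and 12.7% of the genes it tested.

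Gene length moved with the fold change in these libraries, and 6 of the 9 genes are longer than the median tested gene, which has 3060 bases. In the longest quintile of genes, from 4872 bases upwards, 36.0% were called lower and the median log2 fold change was -0.25, and in the shortest quintile, up to 1708 bases, 30.4% were called higher and the median was 0.30. Across the tested genes, which are not independent replicates, length and log2 fold change had a Spearman's rho of -0.48, and of 0.01 after a correction that fits a smooth curve of count against length in each library. Nrxn2, Nrxn3, Nlgn2, Nlgn3 and Lrrtm2 lie in the longest quintile, Nlgn1 in the fourth, Lrrtm1 in the third and both cerebellins in the second. After the correction 1 of the 9 genes, Nrxn2, was called lower and 0 were called higher, against 6.99% and 6.08% of all tested genes (13.1% in all), and the median log2 fold change of the 9 genes was -0.05. Whether the relation with length comes from the tissue or from the libraries was not tested.

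**Figure D1:**
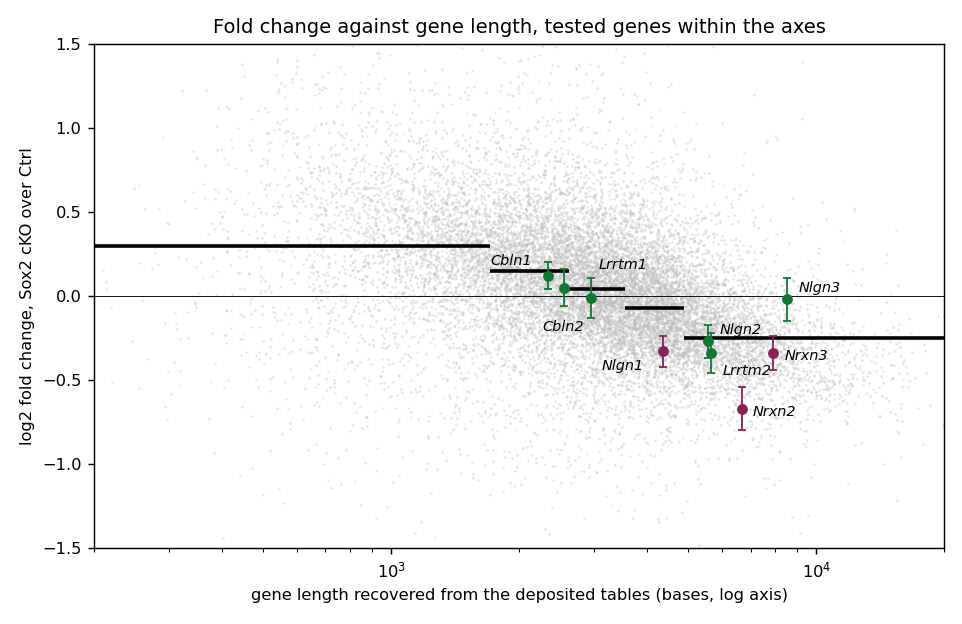
Log2 fold change, Sox2 cKO over Ctrl, against gene length in bases on a log axis for the tested genes inside the axes (grey), with the median of each quintile of genes by length (black bars) and the 9 genes with their SE (purple, adjusted p under 0.05; green, not). The medians go down from 0.30 in the shortest quintile to -0.25 in the longest, where Nrxn3 and Nlgn2 lie near the bar, Nrxn2 lies under it at -0.67 and Nlgn3 over it at -0.02.

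Nrxn2 (ENSMUSG00000033768, mm10 chr19:6418731-6544169, plus strand, 6667 bases of exon length) encodes neurexin 2. Its normalized level was 285, 384 and 416 CPM in Ctrl (libraries 2, 4 and 6, the order used throughout) and 213, 220 and 247 CPM in Sox2 cKO (libraries 1, 3 and 5). The groups did not overlap, with Sox2 cKO the lower, and Ctrl library 2 lay closest to the Sox2 cKO libraries. The means were 361 ± 68.1 CPM (SD, n = 3) in Ctrl and 227 ± 18.2 CPM (SD, n = 3) in Sox2 cKO, a log2 fold change of -0.67 (SE 0.13, edgeR adjusted p = 0.013). With DESeq2, the study's method, the log2 fold change was -0.69 (adjusted p = 1.6e-05). The curve of length moved by -0.25 at its length, and with the length correction the log2 fold change was -0.41 (SE 0.10, adjusted p = 0.029). The call was lost without Ctrl library 4 (adjusted p = 0.066) and without Sox2 cKO library 1 (adjusted p = 0.067), with log2 fold changes of -0.63 in each case, and it held without each of the other 4 libraries. With DESeq2 the call held in all 6 of these fits. Under the length correction it held without Ctrl library 2 or Sox2 cKO library 5, and was lost without Ctrl library 4 (0.12), Ctrl library 6 (0.086), Sox2 cKO library 1 (0.10) or Sox2 cKO library 3 (0.10, all adjusted p). In that order, the length-corrected fits that lost it called 11, 39, 7 and 18 of all tested genes lower. Without the correction, the edgeR fits without Ctrl library 4 and Sox2 cKO library 1 called 13 and 5 lower.

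Nrxn3 (ENSMUSG00000066392, chr12:88722876-90334935, plus strand, 7922 bases) encodes neurexin 3. It measured 173, 217 and 212 CPM in Ctrl and 148, 160 and 167 CPM in Sox2 cKO, again without overlap. The log2 fold change was -0.34 (SE 0.10, adjusted p = 0.037), and with the length correction it was -0.03 (SE 0.06, adjusted p = 0.78), since the curve of length moved by -0.31 at its length. Among the edgeR fits that left out a library, the call held only without Ctrl library 2 (adjusted p = 0.0022). It was lost without Ctrl library 4 (0.14), Ctrl library 6 (0.12) and Sox2 cKO libraries 1 (0.13), 3 (0.098) and 5 (0.058). With DESeq2 it held in 3 of these 6 fits, without Ctrl library 2 (1.9e-06) and Sox2 cKO libraries 3 (0.040) and 5 (0.016, all adjusted p).

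The log2 ratio of Nrxn2 to Nrxn3 counts, which does not depend on the scaling between libraries, was 0.72, 0.82 and 0.97 in Ctrl and 0.52, 0.46 and 0.56 in Sox2 cKO. The difference of the means was -0.32 (SE 0.08), and the ranges were apart. The exact two-sided permutation p was 0.1, the smallest that 3 against 3 libraries can give, and 0.2 adjusted over 6 such ratios. None of these ratios was corrected for gene length.

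**Figure D2:**
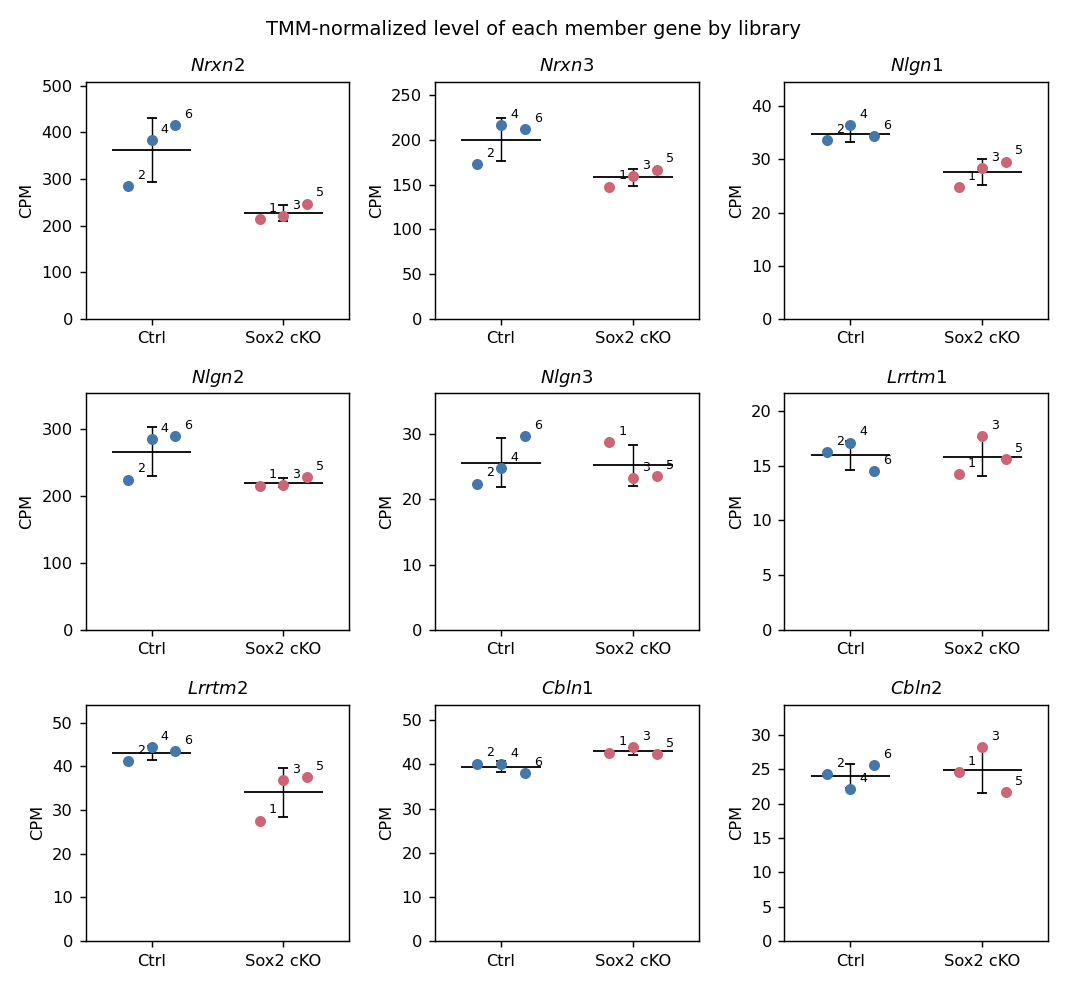
Normalized level in CPM of each of the 9 genes in each library, with library numbers beside the points, the mean (long bar) and the SD (error bar) of the 3 Ctrl (blue) and 3 Sox2 cKO (red) libraries. Nrxn2, Nrxn3, Nlgn1 and Lrrtm2 have all red points below all blue points, Cbln1 has all red points above, and the other 4 genes overlap.

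Nlgn1 (ENSMUSG00000063887, chr3:25426215-26332460, minus strand, 4359 bases) encodes neuroligin 1. Its level was 33.6, 36.5 and 34.4 CPM in Ctrl and 24.8, 28.4 and 29.6 CPM in Sox2 cKO. The Ctrl libraries lay close together and above all Sox2 cKO libraries. The log2 fold change was -0.33 (SE 0.09, adjusted p = 0.029), and -0.25 (SE 0.08, adjusted p = 0.068) with the length correction, where the curve moved by -0.09. The call held without Ctrl library 2 (0.016) and without Sox2 cKO library 5 (0.044), and was lost without Ctrl libraries 4 (0.12) and 6 (0.075) and Sox2 cKO libraries 1 (0.11) and 3 (0.077, all adjusted p). The antisense gene A830092H15Rik shares 1229 exon bases with Nlgn1 and held between 52 and 100 counts in a library, beside 565 to 877 counts of Nlgn1. The use of strand in the counting is not given in the sources used here, so reads of the shared bases cannot be told apart.

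Nlgn2 (ENSMUSG00000051790, chr11:69823122-69837784, minus strand, 5568 bases), the neuroligin of inhibitory synapses, measured 224, 284 and 289 CPM in Ctrl and 215, 216 and 228 CPM in Sox2 cKO. Ctrl library 2 lay within the range of Sox2 cKO, so the groups overlapped. The log2 fold change was -0.27 (SE 0.10, adjusted p = 0.079), and -0.09 (adjusted p = 0.48) with the length correction. It passed with DESeq2 (-0.29, adjusted p = 0.037) and without Ctrl library 2 (-0.38, adjusted p = 0.0026). The DESeq2 call was lost without any library other than Ctrl library 2 (adjusted p = 0.063 to 0.20). Nlgn2 did not pass with upper quartile scaling (adjusted p = 0.12) or with limma on FPKM (adjusted p = 0.21).

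Nlgn3 (ENSMUSG00000031302, chrX:101299168-101325963, plus strand, 8541 bases) is the longest of the 9 genes and had the smallest level per length. It measured 22.4, 24.8 and 29.7 CPM in Ctrl and 28.8, 23.2 and 23.6 CPM in Sox2 cKO, and the ranges overlapped. The log2 fold change was -0.02 (SE 0.13, adjusted p = 0.90). With the length correction it was 0.31 (SE 0.14, adjusted p = 0.14), the curve moving by -0.33, so its sign depended on the correction. Gm21986 lies on the same strand with 3823 shared exon bases and held between 1 and 10 counts, and how reads on the shared bases were assigned is not given in the sources used here.

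Of the neuroligin ratios, that of Nlgn2 to Nlgn3 was 3.32, 3.52 and 3.28 on the log2 scale in Ctrl libraries and 2.90, 3.22 and 3.27 in Sox2 cKO libraries, a difference of -0.24 (SE 0.14, exact permutation p = 0.1, adjusted 0.2). The ranges were apart by 0.01 only. Nlgn1 to Nlgn2 differed by -0.07 (SE 0.11, exact permutation p = 0.6) and Nlgn1 to Nlgn3 by -0.32 (SE 0.21, exact permutation p = 0.3), each with overlap between the groups.

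Lrrtm1 (ENSMUSG00000060780, chr6:77242689-77257791, plus strand, 2958 bases) and Lrrtm2 (ENSMUSG00000071862, 5665 bases) encode postsynaptic neurexin ligands, and each lies inside a catenin gene on the opposite strand. The level of Lrrtm1 was 16.2, 17.1 and 14.5 CPM in Ctrl and 14.2, 17.7 and 15.6 CPM in Sox2 cKO, with overlap and a log2 fold change of -0.01 (SE 0.12, adjusted p = 0.96). Lrrtm2 measured 41.3, 44.4 and 43.5 CPM in Ctrl and 27.6, 36.9 and 37.6 CPM in Sox2 cKO. All Sox2 cKO libraries were below all Ctrl libraries, and library 1 was the lowest. The log2 fold change of Lrrtm2 was -0.34 (SE 0.12, adjusted p = 0.058) and -0.15 (adjusted p = 0.29) with the length correction. Without Ctrl library 2 it passed (-0.37, adjusted p = 0.044), as it did with DESeq2 (-0.35, adjusted p = 0.035) and with no filter on low counts (-0.33, adjusted p = 0.044).

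The log2 ratio of Lrrtm1 to Lrrtm2 was -1.35, -1.37 and -1.59 in Ctrl and -0.96, -1.06 and -1.27 in Sox2 cKO. It was higher in every Sox2 cKO library, by 0.34 on average (SE 0.12, exact permutation p = 0.1, adjusted 0.2). This ratio was not corrected for length, and the curve of length moved by 0.05 for Lrrtm1 and by -0.19 for Lrrtm2. With the length correction their log2 fold changes were -0.05 and -0.15. The part of length in the ratio was not tested. The host catenin genes measured -0.34 (Ctnna2, around Lrrtm1, adjusted p = 0.025) and -0.19 (Ctnna1, around Lrrtm2, adjusted p = 0.084) as log2 fold changes. Ctnna1 shares 95 exon bases with Lrrtm2 and held 2305 to 2918 counts, beside 629 to 1081 counts of Lrrtm2. The paralogs Lrrtm3 and Lrrtm4 had log2 fold changes of 0.01 (adjusted p = 0.97) and 0.18 (adjusted p = 0.30).

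Cbln1 (ENSMUSG00000031654, chr8:87468405-87472609, minus strand, 2334 bases), best known as the cerebellar ligand of delta glutamate receptor 2, measured 40.2, 40.1 and 38.0 CPM in Ctrl and 42.7, 43.9 and 42.3 CPM in Sox2 cKO. It was the only one of the 9 genes with every Sox2 cKO library above every Ctrl library. The log2 fold change was 0.12 (SE 0.08, adjusted p = 0.26), and 0.00 (SE 0.07, adjusted p = 0.99) with the length correction. Cbln2 (ENSMUSG00000024647, 2549 bases) measured 24.3, 22.1 and 25.6 CPM in Ctrl and 24.6, 28.2 and 21.7 CPM in Sox2 cKO, with overlap. Its log2 fold change was 0.05 (SE 0.11, adjusted p = 0.76), and -0.04 (adjusted p = 0.81) with the length correction. The ratio of Cbln1 to Cbln2 differed between the groups by 0.08 on the log2 scale (SE 0.13, exact permutation p = 0.5). Of the other cerebellins, Cbln4 had a log2 fold change of 0.24 (adjusted p = 0.20) and Cbln3 of 0.03 (adjusted p = 0.95), the latter at 1.18 CPM in Ctrl.

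Without regard to a test, 4 of the 9 genes had CPM values that were lower in all Sox2 cKO than in all Ctrl libraries, and 1 had values higher in all. Over all tested genes these shares were 22.1% and 22.6%. Sox2 cKO library 1 had the lowest level of the 6 libraries for Nrxn2, Nrxn3, Nlgn1, Nlgn2, Lrrtm1 and Lrrtm2. On the log2 scale the SD over the 3 libraries was between 0.05 (Cbln1) and 0.29 (Nrxn2) in Ctrl and between 0.03 (Cbln1) and 0.25 (Lrrtm2) in Sox2 cKO.

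**Figure D3:**
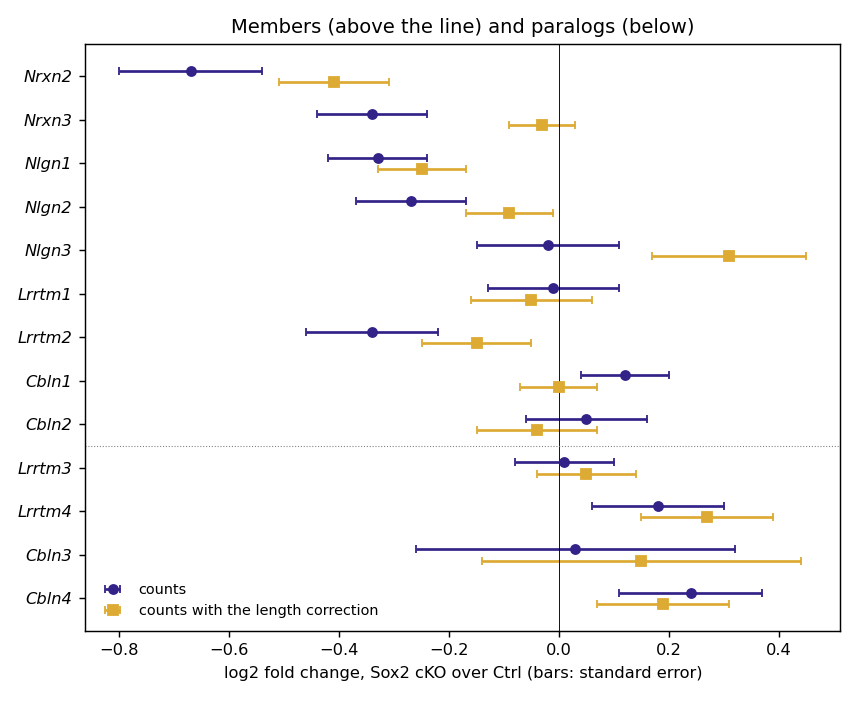
Log2 fold change, Sox2 cKO over Ctrl, of each of the 9 genes and, under the dotted line, of 4 paralogs, without (dark circles) and with (yellow squares) the gene length correction, with SE bars. Nrxn2 is the gene farthest under 0 on both scales, at -0.67 and -0.41, and Nlgn3 moves from -0.02 to 0.31.

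Levels were compared between genes in FPKM, which divides the counts by gene length and library total. Nrxn2 ranged from 42.5 to 58.8 FPKM in Ctrl and Nlgn2 from 40.0 to 49.0, and these neighbours overlapped. Nrxn3 followed at 21.7 to 26.3, Cbln1 at 15.3 to 17.1 and Cbln2 at 8.34 to 9.47 FPKM, each apart from its neighbours. Nlgn1 (7.43 to 8.04) and Lrrtm2 (7.24 to 7.54) overlapped, although Nlgn1 was above Lrrtm2 within each of the 6 libraries. Lrrtm1 (4.61 to 5.57) and Nlgn3 (2.60 to 3.28 FPKM) had the lowest levels. Nlgn3 shares 3823 exon bases with Gm21986 on the same strand. How reads there were assigned is not given, and what this does to its rank was not tested. In Sox2 cKO, Nrxn2 ranged from 33.8 to 37.5 and Nlgn2 from 40.1 to 41.4 FPKM, so that the order of these genes was exchanged. Nrxn2 was above Nlgn2 in the 3 Ctrl libraries and below it in the 3 Sox2 cKO libraries.

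**Figure D4:**
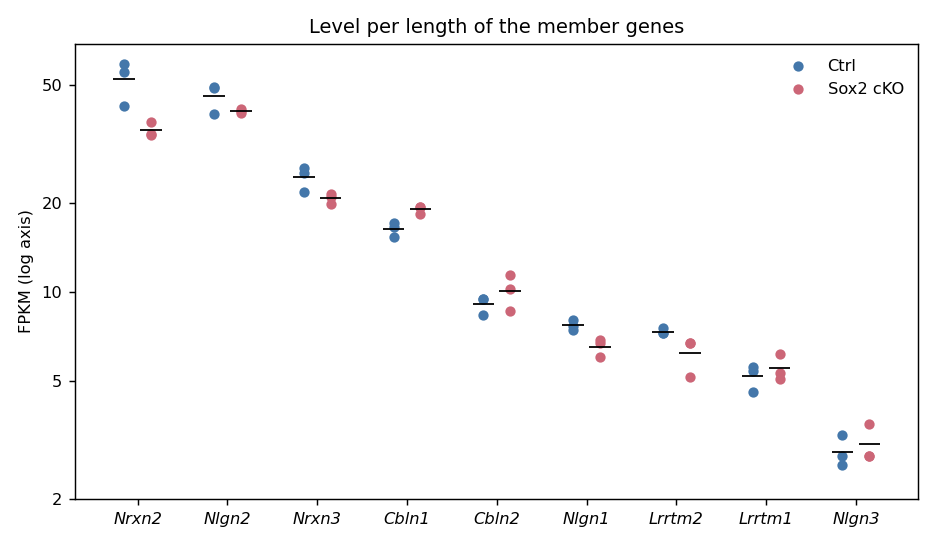
FPKM of the 9 genes in each library on a log axis, ordered by the Ctrl mean, with Ctrl libraries in blue, Sox2 cKO libraries in red and the means as bars. The order runs from Nrxn2 at 42.5 to 58.8 FPKM in Ctrl down to Nlgn3 at 2.60 to 3.28, and the red points of Nrxn2 lie under those of Nlgn2.

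The genes whose levels followed each member most closely over the 6 libraries were found as the smallest root mean square difference in centred log2 CPM among 13323 genes. For Nrxn2 these were Lsm12 (0.023) and Ccni (0.025), which at 2256 and 2804 bases are far shorter than Nrxn2. For Nrxn3 they were Prdm2 (7304 bases) and Mfn2 (4341 bases, 0.021 each). For Nlgn1 they were Ccnt1 (0.021, 7397 bases) and Virma (0.022, 6571 bases), and for Nlgn2 Scap (0.018, 4223 bases) and Epas1 (0.020, 5309 bases). For Lrrtm2 they were Mta3 (0.030, 3287 bases) and Ipo7 (0.031, 3117 bases), and for Cbln1 Bicd2 (6351 bases) and Ampd2 (3650 bases, 0.018 each). Cbln2, with Alyref (0.043, 3527 bases) and Zfp141 (0.051, 4069 bases), had less close neighbours. All genes share the same 6 libraries, and this likeness is a description over 6 points.

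The partners of these proteins were described from lists of 75 further genes, 74 of which passed the filter. Of the 74 genes, 26 were called lower and 3 higher, beside 12.4% and 12.2% of all tested genes, with a median log2 fold change of -0.24. Their median length was 4412 bases. With the length correction, 15 were called lower and 4 higher, beside 6.99% and 6.08%, and the median was -0.12. Leaving out a library changed the count called lower to 40 (without Ctrl library 2), 0 (Ctrl library 4), 3 (Ctrl library 6), 0 (Sox2 cKO library 1), 9 (Sox2 cKO library 3) and 14 (Sox2 cKO library 5). The genes named below as having fallen or risen by edgeR without the length correction therefore lost that call without Ctrl library 4 and without Sox2 cKO library 1, with log2 fold changes of the same sign. Of all tested genes, the edgeR fits without Ctrl library 4 and without Sox2 cKO library 1 called 13 and 5 lower. Calls with the length correction were no firmer, and its fits without these libraries called 11 and 7 of all tested genes lower. They held in 1 of 6 fits that left out a library for Mdga2, Clstn3, Dag1, Sparcl1, Dlg2 and Flrt1. For C1ql1, Car11, Adgrl1, Shank1, Slitrk2 and Lrrc4b they held in 2. With DESeq2 the calls of Mdga2, Clstn3, Car11, Dlg2, Cask, Lin7b, Slitrk2, Flrt1, Adgrl3 and Lrrc4b held in all 6 fits that left out a library. The DESeq2 call of Dag1 held in 5 of these fits, and those of Shank1, Shank3 and Sparcl1 in 4. Those of C1ql1 and Grid1 held in 2 and that of Nxph4 in 1.

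Of 19 tested extracellular partners 5 fell and 2 rose, and the counts were 5 and 2 with the length correction. Mdga2, which binds neuroligins and blocks their contact with neurexins, fell by 0.55 on the log2 scale (adjusted p = 0.013), from 60.7 to 41.4 CPM. Clstn3, a calsyntenin that binds neurexins, fell by 0.38 (adjusted p = 0.021), Dag1, the dystroglycan gene, by 0.37 (adjusted p = 0.023) and C1ql1, a secreted C1q-like protein, by 0.36 (adjusted p = 0.044). Mdga2, Clstn3, Dag1 and C1ql1 also passed with the length correction. The call of C1ql1 was lost with upper quartile scaling (adjusted p = 0.079) and with limma on FPKM (0.12), and that of Dag1 with limma (0.063 and 0.064, by pseudocount). Car11, a carbonic anhydrase-related protein, rose by 0.58 (adjusted p = 0.014) and passed with the correction at 0.35 (adjusted p = 0.036). Nxph4, a neurexophilin, rose by 0.37 (adjusted p = 0.034) and did not pass with it (0.16, adjusted p = 0.29). Grid1, the receptor gene of the cerebellins that was also called lower, had a log2 fold change of -0.29 (adjusted p = 0.049) and -0.08 (adjusted p = 0.46) with the correction. The fifth gene called lower with the correction was Sparcl1, encoding the astrocyte-secreted protein hevin that bridges neurexins and neuroligins. Sparcl1 had a log2 fold change of -0.27 (adjusted p = 0.052) and, with the correction, -0.30 (adjusted p = 0.036), beside the lower summed level of the astrocyte markers, whose part in this was not tested. With DESeq2 it was called lower at -0.28 (adjusted p = 0.0078). The paper also reports less Sparcl1 RNA by RT-qPCR in younger Sox2 cKO spinal cord, less of its protein in brain, and SOX2 binding at this gene. The second gene called higher with the correction was the latrophilin Adgrl1, at 0.31 (adjusted p = 0.032) against -0.01 (adjusted p = 0.91) without. Grid1, Sparcl1 and Adgrl1 were named after their values were seen.

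Of 17 intracellular partners 9 fell and 1 rose, beside 12.4% and 12.2% of all tested genes. After the length correction the counts were 4 and 0, beside 6.99% and 6.08%. The median length of this list was 5875 bases, within the longest quintile, where 36.0% of all tested genes were called lower without the correction. On the postsynaptic side, the scaffold gene Shank1 fell by 1.14 (SE 0.24, adjusted p = 0.014), from 263 ± 95.2 to 119 ± 17.3 CPM (SD, n = 3 each), and it was still called at -0.83 (adjusted p = 0.026) with the correction. Dlg2, encoding the scaffold PSD-93, fell by 0.65 (adjusted p = 0.020) and passed with it (-0.49, adjusted p = 0.041). Shank3 fell by 0.46 (adjusted p = 0.027) and did not pass with it (-0.17, adjusted p = 0.17). On the presynaptic side, Cask, whose kinase-like scaffold binds neurexin tails, fell by 0.64 (adjusted p = 0.016), and was at -0.31 (adjusted p = 0.068) with the correction. Lin7b, at 735 bases the shortest of these genes, rose by 0.67 (adjusted p = 0.012) and was at 0.28 (adjusted p = 0.054) with it. The 3 splicing regulators of the KHDRBS family, which act on neurexin exons, had 0 genes called by edgeR without the correction. At an unadjusted p under 0.05, 1 of the 3 was higher, beside 3181 of the 16137 tested genes. Khdrbs1 and Khdrbs3 each had a log2 fold change of 0.10 (adjusted p = 0.35 and 0.39). With the length correction 1 of the 3 was called higher, beside 6.08% of all tested genes. This was Khdrbs2 at 0.44, which was named after its values were seen.

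Of 31 other synaptic adhesion genes 12 fell and 0 rose by edgeR, beside 12.4% and 12.2% of all tested genes. After the correction the counts were 6 and 1, beside 6.99% and 6.08%. The median length of this list was 4410 bases. Without the correction, 0 of the 31 were higher at an unadjusted p under 0.05, beside 3181 of the 16137 tested genes. Slitrk2 fell by 0.79 (adjusted p = 0.015), Flrt1 by 0.73 (adjusted p = 0.017), Adgrl3 by 0.61 (adjusted p = 0.022) and Lrrc4b by 0.58 (adjusted p = 0.015). Slitrk2 and Lrrc4b encode ligands of LAR-type phosphatases, and FLRT proteins bind latrophilins such as Adgrl3. With the correction Slitrk2 (-0.48), Flrt1 (-0.53) and Lrrc4b (-0.65) passed, and Adgrl3 (-0.35, adjusted p = 0.064) did not. Lrrc4b has 2728 bases, fewer than the median tested gene, and its log2 fold change was larger in size after the correction than before.

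**Figure D5:**
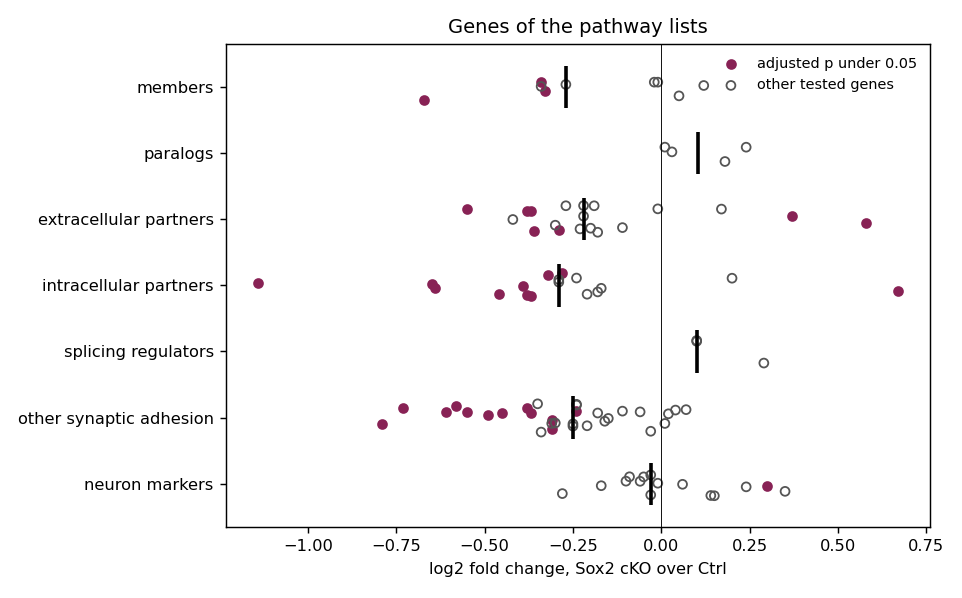
Log2 fold change, Sox2 cKO over Ctrl, of each tested gene in the lists of members, paralogs, extracellular partners, intracellular partners, splicing regulators, other synaptic adhesion genes and neuronal markers (filled, adjusted p under 0.05; open, not), with the list median as a bar. The medians of the members and of the extracellular, intracellular and other adhesion lists lie between -0.29 and -0.22, and those of the paralogs, splicing regulators and neuronal markers at 0.11, 0.10 and -0.03.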

How the data were processed

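Reads were single-end. Per the submitters' processing notes and the paper, they were aligned by STAR (2.5) to the mm10 genome, and HTSeq (0.6.1) gave the number of reads on each gene. They deposited the counts without normalization, and FPKM values made by the authors from the same counts, gene lengths and library totals. The gene length implied by the 2 tables was whole, within 0.01 bases, for each of 24442 genes, and 34490 of 35275 identifiers matched GENCODE M21. The number of sample columns left unused was 0. Columns are numbered without sample names, and were assigned to groups as described above.

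The main test used edgeR 4.0.16 under R 4.3.3 (filterByExpr, TMM, quasi-likelihood test, no covariates), with Benjamini-Hochberg adjustment over the 16137 tested genes and a threshold of 0.05. The biological coefficient of variation was 0.119. CPM values are TMM-normalized, and TMM factors lay between 0.943 and 1.06. The length correction used a lowess curve of log count on log length in each library (span 0.3) as an offset. Alternatives were DESeq2 1.42.0, upper quartile and DESeq2 scaling, no filter, at least 10 counts in every library, limma 3.58.1 on log2(FPKM + 1) and log2(FPKM + 0.1), restricted to a mean FPKM from 0.5 upwards, and leaving out each library. Leaving out libraries under the length correction and DESeq2 was added after the data were seen. Fits were tested on simulated data.

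The labels do not say that mice came from separate litters or extractions, and p-values measure the spread between these samples. The labels give RNA integrity numbers above 6.8, and the paper gives a higher minimum. With 3 mice a group, a permutation test cannot go below 0.1. Compared in 15 pairs, libraries differed by a chi-square of at least 7.13 per degree of freedom. The members and lists were chosen with earlier results of these data known. Besides the members, the genes named were the paralogs, in each other list up to 4 called genes in each direction by size of change (the pair with the highest mean FPKM where fewer passed), Sox2, and the pair of genes most like each member. Some genes that this rule names are not reported here, and are left out of the counts of the lists. Columns of the authors' own fold changes were not used.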

Additional observations from a re-analysis of the deposited data

How the results depend on the processing

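The 9 genes had 0 called higher under every alternative run. The count called lower was 3, and became 5 with DESeq2, 4 with no filter on low counts (Lrrtm2 added), 1 with limma on FPKM at either pseudocount (Nrxn2) and 1 with the length correction. Leaving out a library gave 0 to 5 with edgeR, 0 to 1 under the length correction and 1 to 5 with DESeq2, which called Nrxn2 in each of these 6 fits. Of all genes, the length-corrected fits called 11 lower without Ctrl library 4 and 39 without Ctrl library 6. They called 7 lower without Sox2 cKO library 1 and 18 without Sox2 cKO library 3. Without Ctrl library 2 and Sox2 cKO library 5 these were 2338 and 534. With DESeq2 the fits without a library called 1094 to 3004 of all genes lower. The 74 tested partner genes had 9 and 8 called lower with limma (pseudocounts 1 and 0.1) and 15 with the length correction. Leaving out a library gave 0 to 40 lower (3, 9 and 14 without Ctrl library 6 and Sox2 cKO libraries 3 and 5) and 0 to 4 higher. Of all genes, 2008 were called lower and 1962 higher. With limma these were 915 and 2670 (pseudocount 1) and 896 and 2614 (pseudocount 0.1), with the length correction 1128 and 981, and without a library between 5 and 3089 lower and between 3 and 3030 higher. The fits without Ctrl library 4 (13 lower, 13 higher) or Sox2 cKO library 1 (5 and 3) called the fewest, and those without Ctrl library 6 and Sox2 cKO libraries 3 and 5 gave 480, 661 and 1336 lower, with 602 and 698 higher for the former pair. The cause was not tested.

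Changes of sign were found for genes near 0. Nlgn3 was at 0.02 with upper quartile scaling, 0.06 and 0.08 with limma, 0.31 with the length correction, 0.02 to 0.10 without Ctrl library 6 or Sox2 cKO libraries 3 or 5 (0.03 without library 3; with DESeq2 0.08, 0.02 and 0.00), and 0.14 to 0.40 (0.25, 0.30, 0.39) in the length-corrected fits without a library. Lrrtm1 was at 0.04 with upper quartile scaling, 0.07 and 0.09 with limma, and 0.00 to 0.06 without Ctrl libraries 2 or 4 or Sox2 cKO libraries 1 or 5 (0.05 without Ctrl library 4; with DESeq2 0.04 and 0.05, with the length correction 0.01 and 0.02, without Ctrl library 4 and Sox2 cKO library 1). Cbln1 was at -0.01, -0.01 and -0.02 in the length-corrected fits without Ctrl libraries 2 or 6 or Sox2 cKO library 3. Cbln2 was at -0.04 with the length correction (-0.15 to 0.04 without a library, of which -0.15, -0.09, -0.06 and -0.02 were below 0), and at -0.01 and -0.05 without Ctrl library 4 and Sox2 cKO library 3 (-0.02 and -0.07 with DESeq2). Lrrtm3 was at -0.01 with DESeq2, -0.00 with its size factors in edgeR, and -0.04, -0.02 and -0.02 without Ctrl libraries 4 or 6 or Sox2 cKO library 5. Cbln3 was at -0.15, -0.04 and -0.01 without Ctrl library 4 and Sox2 cKO libraries 1 and 3, and Khdrbs3 at -0.08 with the length correction. The ratio difference of Nlgn1 to Nlgn2 was 0.02 without Ctrl library 2, and that of Cbln1 to Cbln2 -0.00 without Sox2 cKO library 5.

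No paired analysis was possible because the deposited columns carry no replicate numbers of the labels. Depth was 21507911 to 28392184 counts, and the member with the fewest counts, Lrrtm1, held 300 to 518. An exact test of 3 against 3 libraries cannot pass the threshold. Gene-level counts resolve no isoforms, cells of a type cannot be separated in whole tissue, and reads shared by overlapping genes cannot be told apart.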
